A study of Homo sapiens with 12 samples.

Results

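Transcript levels of 44 genes that build, fold, move and discard proteins in the endoplasmic reticulum (ER) were followed in myeloma cells after 2 h with 1 of 3 small molecules or vehicle. The genes were listed by symbol for their function, with earlier results of these data known. Each of the 44 matched 1 of 63152 Ensembl identifiers in the count table, and all 44 were among the 13180 genes that passed the expression filter. The cells were OPM2, an established cell line from a human plasma cell cancer, multiple myeloma. The 4 groups were 18DS at 250 nM, JQ1 at 250 nM, BKM120 at 1 µM and the solvent DMSO, each with 3 libraries from treatments done in biological triplicate. JQ1 blocks BET proteins, readers of acetylated chromatin. BKM120 blocks PI3K, a lipid kinase of growth signalling. The submitters describe 18DS as a chimera that inhibits both. No library received JQ1 and BKM120 together, the dose of 18DS differs from that of BKM120, and a single cell line and a single time were studied. Libraries were made by QuantSeq, which reads the 3′ ends of polyadenylated transcripts.

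Total counts ranged over 5882214 to 7292895 for 18DS libraries and 5501895 to 7692013 for JQ1 libraries. They ranged over 5563788 to 6883854 for BKM120 and 5940610 to 6594995 for DMSO. The 44 genes took 0.970% to 1.07% of counts for 18DS, 1.02% to 1.08% for JQ1, 1.02% to 1.04% for BKM120 and 1.07% to 1.09% for DMSO. All 9 markers of plasma cells and of OPM2 were measured, with sums in CPM (counts scaled to a common library size) of 2310 to 2420 for 18DS, 2280 to 2310 for JQ1, 2590 to 2810 for BKM120 and 2650 to 2730 for DMSO. The 18DS and JQ1 sums thus lay below the DMSO sums, among them *IRF4*, a transcription factor gene of plasma cells, at 195, 188 and 187 CPM in 18DS and 193, 195 and 199 CPM in JQ1 against 300.1, 316 and 291 CPM in DMSO. *NSD2*, a histone methyltransferase gene, went the other way, at 808, 859 and 894 CPM in 18DS and 776, 812 and 828 CPM in JQ1 against 649.7, 655 and 604.5 CPM in DMSO. The part of these markers in the ER gene results was not tested. By contrast, 3 markers of mature B cells, 5 of T and NK cells and 5 of epithelial cells and fibroblasts stayed under the filter, with sums of at most 0.719 CPM. Of 4 myeloid markers only the lysozyme gene *LYZ* passed, and the 4 summed to at most 2.86 CPM. The library of 18DS replicate 2 stood apart within this set, being the lowest of the 12 libraries for 15 of the 44 genes and the highest for 13. Results for 18DS are therefore also given without it where a gene was called.

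Secretory proteins enter the ER through the SEC61 channel, lose their signal peptide and are folded by chaperones and by enzymes that form disulfide bonds. When unfolded protein accumulates, the membrane sensors IRE1, PERK and ATF6 start the unfolded protein response. In it IRE1 splices *XBP1* mRNA, PERK slows translation and favours ATF4, and ATF6 is cut to release a transcription factor. Plasma cells depend on this system because they secrete antibody, and XBP1 is needed for their secretory program. Counts at 3′ ends do not separate the spliced from the unspliced *XBP1* transcript.

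ATF6 and XBP1 act through short promoter elements, and the stretches that hold such an element are shown for 4 genes that rose with 18DS (*HSPA5*, *CALR*, *HERPUD1*, *HYOU1*), for *XBP1*, which fell, and for *HSP90B1*, which was not called. They come from RefSeq promoter windows of GRCh38.p14, a later build than the hg19 of the counts. They run 5′ to 3′ on the gene's strand with 20 bases on each side. Capitals mark matches on either strand to the ER stress element ERSE (CCAAT and CCACG with 9 bases between) or to ERSE-II (ATTGG and CCACG with 1 base between).
HSPA5, chr9:125241371-125241429, minus strand, ERSE: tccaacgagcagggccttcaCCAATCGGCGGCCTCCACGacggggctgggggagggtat
CALR, chr19:12938364-12938422, plus strand, ERSE: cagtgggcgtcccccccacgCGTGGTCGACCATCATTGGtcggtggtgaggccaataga
HERPUD1, chr16:56932005-56932055, plus strand, ERSE-II: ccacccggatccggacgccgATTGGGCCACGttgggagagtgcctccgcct
HYOU1, chr11:119057254-119057410, minus strand, ERSE-II: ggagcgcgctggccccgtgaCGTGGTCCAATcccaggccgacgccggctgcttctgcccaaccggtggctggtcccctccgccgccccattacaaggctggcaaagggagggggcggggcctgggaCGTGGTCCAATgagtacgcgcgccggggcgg
XBP1, chr22:28800583-28800641, minus strand, ERSE: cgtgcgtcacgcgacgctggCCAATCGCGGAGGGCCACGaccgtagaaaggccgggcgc
HSP90B1, chr12:103930196-103930359, plus strand, ERSE: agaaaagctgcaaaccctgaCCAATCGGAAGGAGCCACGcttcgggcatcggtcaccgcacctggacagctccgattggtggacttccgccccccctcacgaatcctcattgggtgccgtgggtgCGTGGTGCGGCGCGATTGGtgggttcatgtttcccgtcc

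Windows of 300 bases (250 before and 50 after a start) were found for 39 of the 44 genes, some with several starts. ERSE was present for 8 of the 39 (20.5%), namely *CALR*, *CANX*, *CRELD2*, *ERO1B*, *HSP90B1*, *HSPA5*, *PDIA6* and *XBP1*, and in 27 of all 35116 windows (0.0769%). ERSE-II was present for 3 (7.7%), *HERPUD1*, *HYOU1* and *SDF2L1*, and in 0.0541% of windows. The core of the XBP1 element UPRE (TGACGTGG) was present for 4 of the 39 and in 0.729% of windows, and in *HYOU1* it overlaps an ERSE-II match. An E-box (CACGTG), the site read by MYC and MAX, was present for 7 of the 39 (17.9%) and in 7.26% of windows, and the FOXO motif GTAAACA for 0 of the 39 and in 3.42% of windows. Of the genes with an ERSE or ERSE-II match, *CANX*, *CRELD2*, *ERO1B*, *HSP90B1*, *PDIA6* and *SDF2L1* were not called with 18DS. *MANF*, *P4HB* and *SSR4*, which rose with 18DS, had windows with neither element. These are matches of letters in a window, and binding was not measured.

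A few of the ER genes changed with each compound. With 18DS against DMSO 8 rose and 3 fell, which is 25% of the 44 against a background of 21.0% of all tested genes called. By direction, 18.2% of the 44 were higher against 9.95% of all tested genes, and 6.82% were lower against 11.0%. A gene was called where its adjusted p from edgeR's quasi-likelihood test was under 0.05. The 8 that rose were *CALR*, *HERPUD1*, *HYOU1*, *P4HB*, *MANF*, *SSR4*, *HSPA5* and *PDIA3*, and the 3 that fell were *XBP1*, *SEL1L* and *CREB3L2*. With JQ1 against DMSO 2 rose (*HERPUD1* and *HSPA5*) and 1 fell (*XBP1*), or 6.82% against a background of 6.08% (2.63% higher and 3.45% lower). With BKM120 against DMSO 3 rose (*EIF2AK3*, *EDEM3* and *PDIA3*) and 2 fell (*SEC11C* and *DNAJC3*), or 11.4% against a background of 8.21% (4.07% higher and 4.14% lower). The 3 comparisons share the DMSO libraries. With a minimum count of 50, which left 42 of the 44, 28.6% were called with 18DS against 26.2% of all tested genes. By direction these were 23.8% against 13.2% higher and 4.76% against 13.1% lower. The shares were 7.14% against 7.59% with JQ1 and 11.9% against 11.8% with BKM120.

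**Figure D1:**
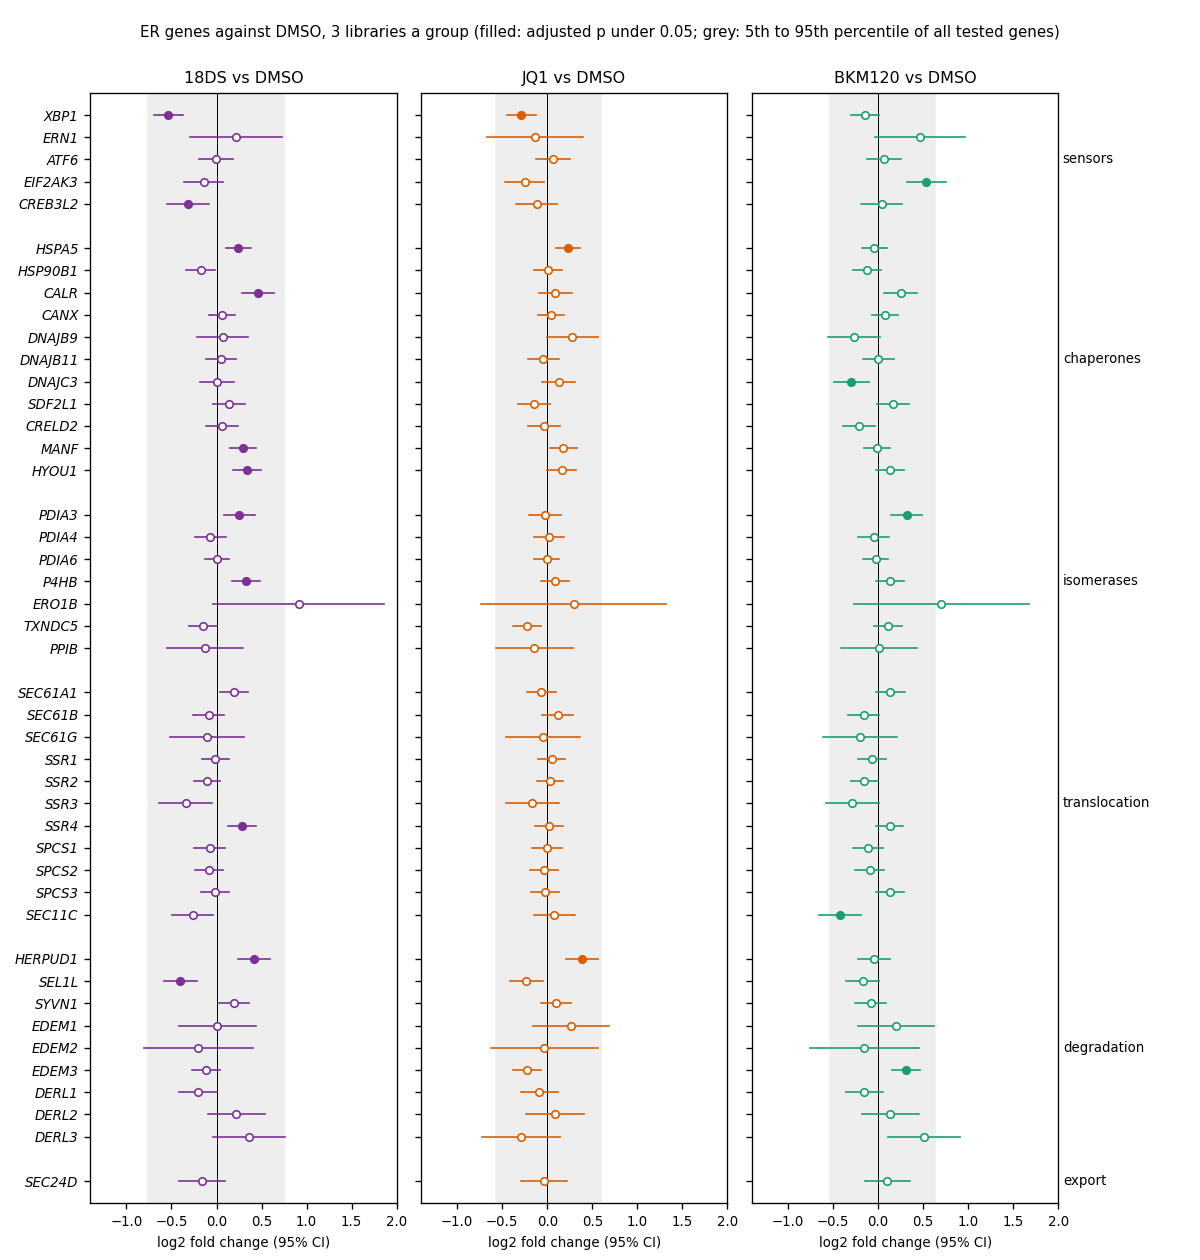
Log2 fold change against DMSO (horizontal axis) of each of the 44 genes (rows, grouped by role) for 18DS, JQ1 and BKM120, with 95% confidence intervals from the edgeR fit over 12 libraries. Filled points passed an adjusted p under 0.05 (11 for 18DS, 3 for JQ1 and 5 for BKM120), and the grey band runs from the 5th to the 95th percentile of all 13180 tested genes.

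The median log2 fold change of the 44 genes was -0.00067 with 18DS, -0.0063 with JQ1 and -0.0047 with BKM120, beside -0.0034, 0.0030 and 0.00014 over all tested genes. Libraries of the treated group and of DMSO did not overlap for 17 of the 44 genes with 18DS, 11 with JQ1 and 14 with BKM120, against 35.3%, 25.3% and 28.2% of all tested genes. The ratio of the highest to the lowest of the 4 group means was under 1.5 for 41 of the 44 genes, with a median of 1.22. The other 3 were *ERO1B*, *EIF2AK3* and *DERL3*. Without 18DS replicate 2, 6 genes rose and 2 fell with 18DS, or 18.2% of the 44 against 15.4% of all tested genes. Scaled by library totals alone, 6 rose and 8 fell with 18DS (31.8% against 22.2% of all tested genes). At that scaling 1 rose and 3 fell with JQ1 (9.09% against 6.52%), and in 18DS against JQ1 1 was higher and 1 lower (4.55% against 4.72%). Scaled by upper-quartile factors, 10 rose and 2 fell with 18DS (27.3% against 21.9%), and 4 rose and 1 fell with BKM120 (11.4% against 8.84%).

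Among the sensors and transcription factors *XBP1* fell with both compounds that bind BET proteins. *XBP1* (ENSG00000100219) stood at 650.1, 505 and 503 CPM in 18DS, 626, 664 and 676 CPM in JQ1 and 712, 763 and 697 CPM in BKM120, against 829, 791 and 782 CPM in DMSO. Every library of the 3 treated groups lay below every DMSO library, and 18DS replicates 2 and 3 were the lowest of all. The log2 fold change was -0.53 with 18DS (SE 0.08, edgeR adjusted p = 5.35e-06) and -0.47 without 18DS replicate 2. It was -0.29 with JQ1 (SE 0.08, adjusted p = 0.0200) and -0.15 with BKM120 (95% confidence interval -0.31 to 0.01, adjusted p = 0.267). The JQ1 call was lost without JQ1 replicate 1, 2 or 3 or DMSO replicate 1 or 2 (adjusted p of 0.0501 to 0.117).

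*EIF2AK3*, which encodes the translation-inhibiting kinase PERK, rose with BKM120. It stood at 63.8, 65.8 and 58.6 CPM in 18DS, 65.2, 47.1 and 61.7 CPM in JQ1 and 105, 84.8 and 112 CPM in BKM120, against 66.8, 72.7 and 68.4 CPM in DMSO. The BKM120 libraries were the 3 highest of the 12, and no 18DS or JQ1 library reached the lowest DMSO library. The log2 fold change was 0.54 with BKM120 (SE 0.10, edgeR adjusted p = 0.00101), -0.14 with 18DS (95% confidence interval -0.36 to 0.07) and -0.25 with JQ1 (-0.47 to -0.03, adjusted p = 0.192). The BKM120 call held in each of 22 alternatives, with adjusted p from 6.88e-06 to 0.0174.

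*ERN1*, which encodes IRE1, was measured at low counts, with 8.99, 4.20 and 8.03 CPM in 18DS, 6.86, 5.80 and 4.39 CPM in JQ1 and 7.06, 9.42 and 8.96 CPM in BKM120, against 4.70, 7.71 and 6.15 CPM in DMSO. The groups overlapped, and the log2 fold change of 0.46 with BKM120 had a 95% confidence interval of -0.04 to 0.96. *ATF6* stood at 51.7, 57.9 and 49.3 CPM in 18DS, 55.7, 56.2 and 55.1 CPM in JQ1 and 56.7, 57.4 and 52.3 CPM in BKM120, against 55.9, 52.5 and 50.8 CPM in DMSO. Its intervals were narrower, -0.20 to 0.18 with 18DS, -0.12 to 0.26 with JQ1 and -0.13 to 0.25 with BKM120. *CREB3L2*, a transcription factor of the ATF6-like family that acts in secretory cells, fell with 18DS (-0.31, SE 0.12, edgeR adjusted p = 0.0492), with 28.2, 27.5 and 31.5 CPM in 18DS against 40.7, 31.5 and 36.0 CPM in DMSO. DMSO replicate 2 lay within the 18DS range. This call was at the threshold and was lost in 19 of 22 alternatives, among them without 18DS replicate 2 (-0.27, adjusted p = 0.140), with adjusted p from 0.0142 to 0.316 over the 22.

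**Figure D2:**
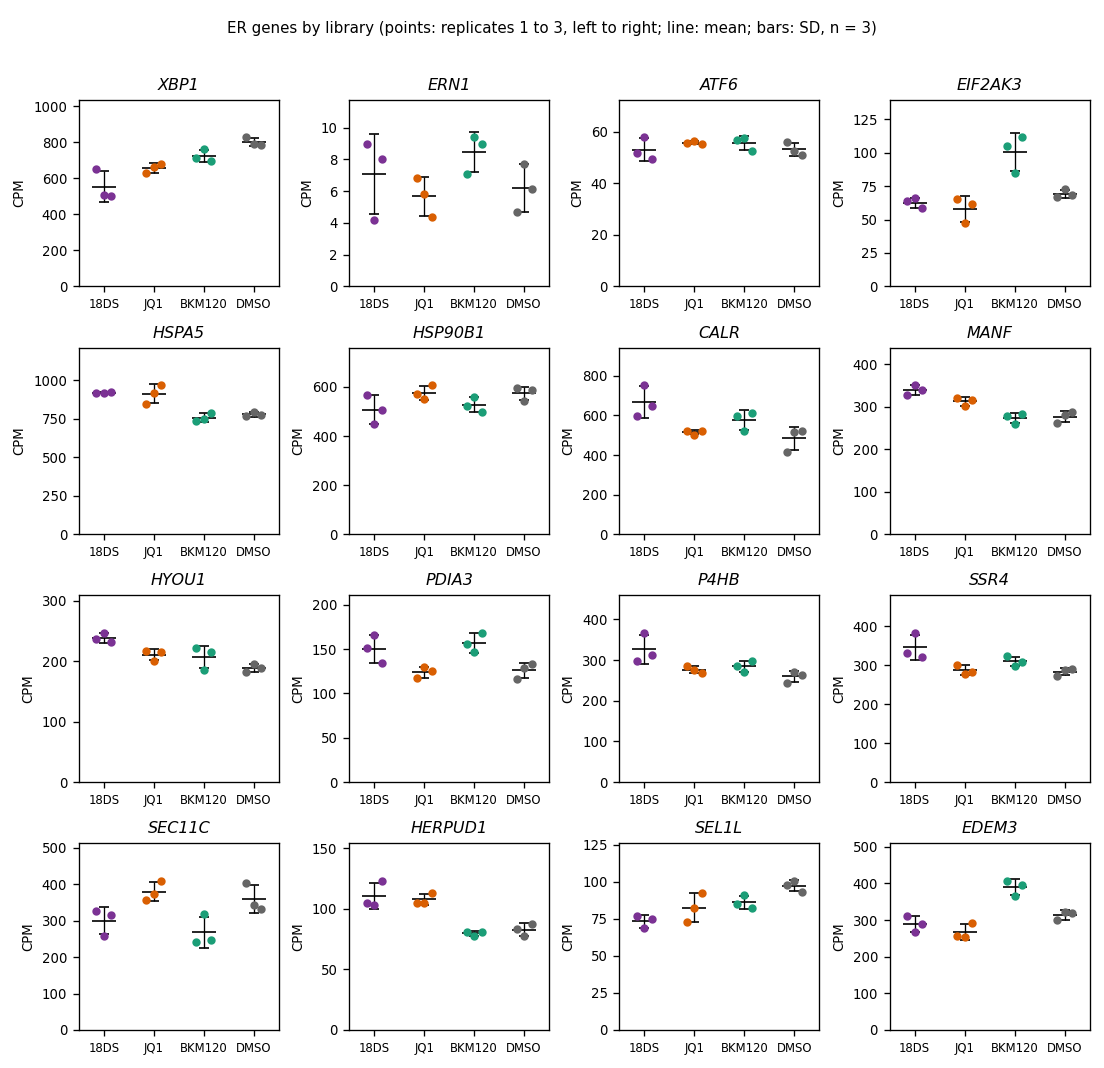
Level in CPM (vertical axis, from 0) of 16 of the genes in each library of 18DS, JQ1, BKM120 and DMSO (points are replicates 1 to 3 from left to right, lines are means and bars are SD, n = 3). *XBP1* was lowest in 18DS and *EIF2AK3* highest in BKM120, while *HSPA5* and *HERPUD1* were higher in both 18DS and JQ1 than in DMSO.

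Of 11 chaperones and their partners 4 rose with 18DS (36.4%, against 21.0% of all tested genes called), 1 rose with JQ1 and 1 fell with BKM120 (9.09% each, against 6.08% and 8.21%). *HSPA5*, which encodes BiP, the main ER chaperone and a standard reporter of the unfolded protein response, stood at 918, 922 and 924 CPM in 18DS, 848, 918 and 972 CPM in JQ1 and 734, 747 and 790 CPM in BKM120, against 766, 796 and 775 CPM in DMSO. All 18DS and JQ1 libraries lay above all DMSO libraries, and the 18DS libraries differed from each other by little. The log2 fold change was 0.24 with 18DS (SE 0.07, edgeR adjusted p = 0.00869) and 0.25 without 18DS replicate 2. It was 0.23 with JQ1 (SE 0.07, adjusted p = 0.0339) and -0.04 with BKM120 (95% confidence interval -0.18 to 0.09). Scaled by library totals alone, neither *HSPA5* call remained (0.17, edgeR adjusted p = 0.0627 with 18DS, and 0.20, adjusted p = 0.0669 with JQ1). The JQ1 call was also lost with no expression filter (adjusted p = 0.0813), and without JQ1 replicate 2 or 3 or any 1 DMSO library (adjusted p of 0.0793 to 0.230).

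*CALR*, which encodes the calcium-binding lectin chaperone calreticulin, stood at 596, 755 and 650.1 CPM in 18DS, 520, 503 and 524 CPM in JQ1 and 597, 520 and 611 CPM in BKM120, against 417, 517 and 520 CPM in DMSO. The 18DS libraries all lay above the JQ1 and DMSO libraries, and 18DS replicate 1 lay within the BKM120 range. DMSO replicate 1 was the lowest of the 12. The log2 fold change with 18DS was 0.46 (SE 0.09, edgeR adjusted p = 0.000286), or 0.37 without 18DS replicate 2, and with BKM120 it was 0.25 (95% confidence interval 0.07 to 0.43, adjusted p = 0.0728). *MANF*, a secreted ER stress-responsive factor, stood at 327, 351 and 339 CPM in 18DS and 320, 301 and 317 CPM in JQ1, against 262, 280.2 and 287 CPM in DMSO. Its rise was 0.30 with 18DS (SE 0.07, adjusted p = 0.00268), and 0.27 without 18DS replicate 2. *HYOU1*, which encodes the BiP nucleotide exchange factor GRP170, stood at 236, 247 and 232 CPM in 18DS, against 182, 196 and 189 CPM in DMSO, a rise of 0.34 (SE 0.08, adjusted p = 0.00160), and of 0.31 without 18DS replicate 2.

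For *CALR* and *HYOU1* an antisense gene on the opposite strand carried nearly the same counts, at 94.2% to 97.1% of those of *CALR* and 96.7% to 98.3% of those of *HYOU1* over the 12 libraries. The strand setting of the counting is not given in the sources used here, so reads of these genes and of their antisense partners cannot be told apart. *HSP90B1*, which encodes the chaperone GRP94, stood at 568, 451 and 504 CPM in 18DS, 570.1, 551 and 609 CPM in JQ1 and 522, 559.9 and 499.6 CPM in BKM120, against 594, 543 and 586 CPM in DMSO. It was not called with 18DS (-0.18, 95% confidence interval -0.33 to -0.02, edgeR adjusted p = 0.0965). It was lower at an adjusted p of 0.0173 without 18DS replicate 1 and of 0.0150 with library totals, and it differed by -0.10 (adjusted p = 0.436) without 18DS replicate 2. *DNAJC3*, which encodes the PERK inhibitor and BiP co-chaperone p58IPK, stood at 44.9, 43.1 and 44.4 CPM in BKM120 against 56.5, 50.6 and 55.5 CPM in DMSO. It fell by 0.30 on the log2 scale (edgeR SE 0.09, adjusted p = 0.0453), a call that was lost in 14 of 22 alternatives (adjusted p up to 0.177). The other chaperones and partners, *CANX*, *DNAJB9*, *DNAJB11*, *SDF2L1* and *CRELD2*, were not called against DMSO, with log2 fold changes from -0.27 (*DNAJB9* with BKM120) to 0.28 (*DNAJB9* with JQ1). In bulk libraries a change of level in each cell and a change in the share of cells that express a gene cannot be told apart.

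Summed over the 11 chaperones and partners, the level was 3423, 3538 and 3420 CPM in 18DS, 3225, 3188 and 3389 CPM in JQ1 and 3111, 3025 and 3167 CPM in BKM120, against 2938, 3087 and 3125 CPM in DMSO. All 18DS and all JQ1 libraries lay above all DMSO libraries, whereas BKM120 and DMSO overlapped. The sum weighs genes by their level. Group means in 18DS, JQ1 and DMSO were 921, 912 and 779 CPM for *HSPA5* and 667, 516 and 485 CPM for *CALR*. They were 507.5, 577 and 574 CPM for *HSP90B1*. Of the 11 log2 fold changes 10 lay above 0 with 18DS and 8 with JQ1, but 5 and 7 with library totals. The 5 sensors and transcription factors summed to 803, 661 and 650.0 CPM in 18DS, 785, 809 and 830.1 CPM in JQ1 and 919.9, 952 and 905 CPM in BKM120, against 997, 956 and 944 CPM in DMSO. *XBP1* alone made up most of each sum (650.1, 505 and 503 CPM in 18DS, and 829, 791 and 782 CPM in DMSO). The sum thus mainly follows *XBP1*, and *ERN1*, *ATF6* and *EIF2AK3* were not called with 18DS or JQ1.

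**Figure D3:**
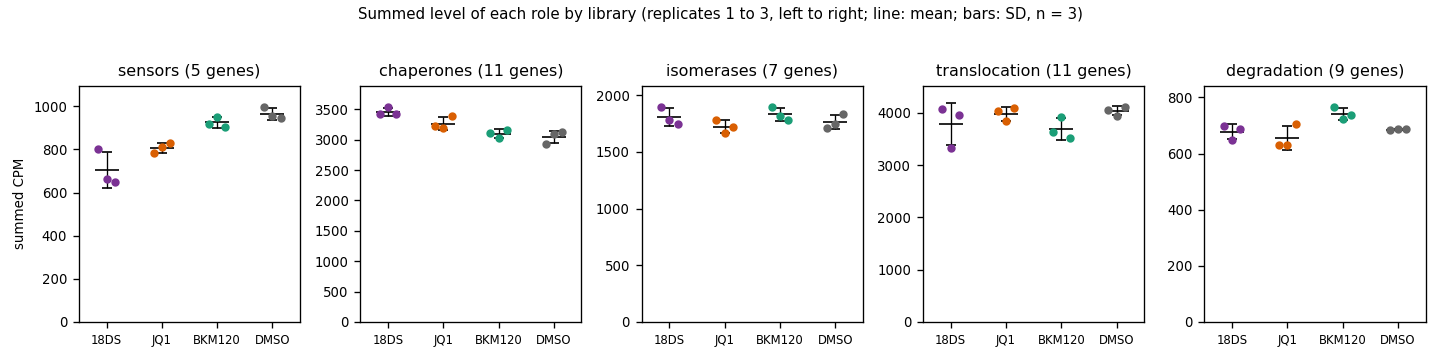
Summed CPM (vertical axis, from 0) of the genes of each role in each library of 18DS, JQ1, BKM120 and DMSO (points are replicates 1 to 3 from left to right, lines are means and bars are SD, n = 3). The chaperone sum was higher in 18DS and JQ1 than in DMSO, and the translocation sum of 18DS replicate 2 (3336 CPM) was the lowest of the 12.

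Among 7 enzymes that form disulfide bonds or turn proline bonds, 2 rose with 18DS (28.6%, against 21.0% of all tested genes) and 1 with BKM120 (14.3%, against 8.21%). *PDIA3*, a disulfide isomerase that works with calreticulin and calnexin, stood at 152, 166 and 134 CPM in 18DS, 117, 130.0 and 125 CPM in JQ1 and 156, 146 and 169 CPM in BKM120, against 116, 129 and 133 CPM in DMSO. The 18DS and BKM120 libraries all lay above the DMSO libraries, 18DS replicate 3 by the smallest margin. The log2 fold change was 0.25 with 18DS (SE 0.09, edgeR adjusted p = 0.0314), -0.02 with JQ1 and 0.32 with BKM120 (SE 0.09, adjusted p = 0.0169). The 18DS call was lost without 18DS replicate 2 (0.18, adjusted p = 0.154) or DMSO replicate 1 or 2, with library totals (adjusted p = 0.125) and with the 2 groups fitted alone (adjusted p = 0.0634). The BKM120 call was lost without BKM120 replicate 1 or 3 or DMSO replicate 1 (adjusted p of 0.0608 to 0.129).

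*P4HB*, which encodes protein disulfide isomerase itself, stood at 299, 367 and 313 CPM in 18DS, 285, 276 and 268 CPM in JQ1 and 287, 269.9 and 298 CPM in BKM120, against 244, 272 and 264 CPM in DMSO. It rose by 0.33 with 18DS (SE 0.08, edgeR adjusted p = 0.00229), and by 0.24 (adjusted p = 0.0261) without 18DS replicate 2, the highest library. An antisense gene on the opposite strand carried 86.0% to 92.5% of its counts. The thioredoxin-domain enzyme gene *TXNDC5* was lower in every JQ1 library than in every DMSO library (339, 293 and 289 CPM in JQ1 against 351, 354 and 372 CPM in DMSO) without passing (-0.23, SE 0.08, adjusted p = 0.0723). *PDIA4*, *PDIA6*, the oxidase gene *ERO1B* and the proline isomerase gene *PPIB* were not called against DMSO, and *ERO1B* had from 0.516 to 3.68 CPM, with a wide interval (-0.04 to 1.86 with 18DS).

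Of 11 genes of the translocation channel, of the TRAP complex that sits beside it and of the signal peptidase, 1 rose with 18DS and 1 fell with BKM120. That is 9.09% each, against 21.0% and 8.21% of all tested genes. *SSR4*, which encodes the TRAP subunit delta, stood at 332, 384 and 322 CPM in 18DS, 301, 278 and 284 CPM in JQ1 and 323, 298 and 309 CPM in BKM120, against 273, 287 and 291 CPM in DMSO. It rose by 0.28 with 18DS (SE 0.07, edgeR adjusted p = 0.00554), and by 0.21 without 18DS replicate 2 (adjusted p = 0.0508, no longer called). *SEC11C*, a catalytic subunit of the signal peptidase, stood at 327, 257 and 315 CPM in 18DS, 356, 374 and 409.8 CPM in JQ1 and 241, 317 and 246 CPM in BKM120, against 404, 344 and 332 CPM in DMSO. BKM120 replicates 1 and 3 and 18DS replicate 2 were the lowest of the 12. It fell by 0.42 on the log2 scale with BKM120 (SE 0.11, adjusted p = 0.0224), a call lost without BKM120 replicate 1 or 3 or DMSO replicate 1 (adjusted p of 0.0954 to 0.112). The call was also lost with the replicate number as a block (edgeR adjusted p = 0.0537).

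The remaining 9 translocation genes were not called against DMSO. *SSR3*, the TRAP subunit gamma gene, stood at 541, 361 and 511 CPM in 18DS against 565, 582 and 643 CPM in DMSO, and *SEC61G*, the gene of the channel's gamma subunit, at 941, 589 and 970.0 CPM in 18DS against 908, 841 and 949 CPM in DMSO. In both, 18DS replicate 2 lay far below the other libraries of its group, and the log2 fold changes were -0.34 (SE 0.13, edgeR adjusted p = 0.0967) and -0.11 (95% confidence interval -0.52 to 0.30). Without 18DS replicate 2 they were -0.18 for *SSR3* and, with the sign turned, 0.09 for *SEC61G*, and neither was called. *SEC61A1*, the pore subunit gene, differed from DMSO by 0.19 with 18DS (adjusted p = 0.0745), -0.07 with JQ1 and 0.14 with BKM120. The other 6, *SEC61B*, *SSR1*, *SSR2*, *SPCS1*, *SPCS2* and *SPCS3*, had log2 fold changes from -0.16 to 0.13 over the 3 compounds.

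The ER-associated degradation genes, whose products recognise misfolded proteins and pass them to the cytosol for destruction, moved in both directions, with 2 of 9 called with 18DS (22.2%, against 21.0% of all tested genes) and 1 of 9 each with JQ1 and BKM120 (11.1%, against 6.08% and 8.21%). *HERPUD1*, an early target of the unfolded protein response that organises the degradation complex, stood at 105, 104 and 123 CPM in 18DS, 105, 105 and 114 CPM in JQ1 and 81.2, 77.7 and 81.3 CPM in BKM120, against 83.7, 77.2 and 87.7 CPM in DMSO. All 18DS and JQ1 libraries lay above all DMSO and BKM120 libraries. The log2 fold change was 0.42 with 18DS (SE 0.09, edgeR adjusted p = 0.000500), 0.47 without 18DS replicate 2, 0.38 with JQ1 (SE 0.09, adjusted p = 0.00383) and -0.05 with BKM120 (95% confidence interval -0.23 to 0.13). Both calls held in each of the 22 alternatives.

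*SEL1L*, the partner of the ubiquitin ligase HRD1, stood at 76.6, 68.4 and 75.1 CPM in 18DS, 72.7, 82.3 and 92.3 CPM in JQ1 and 85.2, 91.0 and 82.4 CPM in BKM120, against 97.5, 101 and 93.4 CPM in DMSO. Every treated library lay below every DMSO library, most of all in 18DS. It fell by 0.40 on the log2 scale with 18DS (SE 0.09, edgeR adjusted p = 0.00121) and by 0.35 without 18DS replicate 2, and differed by -0.23 with JQ1 (adjusted p = 0.129) and -0.17 with BKM120 (adjusted p = 0.243). *SYVN1*, which encodes HRD1, differed by 0.20 with 18DS (adjusted p = 0.0813), and it shares exon positions with genes on both strands. *EDEM3*, a mannosidase gene that marks glycoproteins for disposal, stood at 310.4, 269 and 289 CPM in 18DS, 257, 254 and 293 CPM in JQ1 and 408, 365 and 395 CPM in BKM120, against 299, 322 and 320 CPM in DMSO.

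The BKM120 libraries were the 3 highest for *EDEM3*, a rise of 0.31 (SE 0.08, edgeR adjusted p = 0.00777), which was not called without BKM120 replicate 1 (0.28, adjusted p = 0.0651). *DERL3*, a derlin gene of secretory cells, was measured at low counts, with 8.29, 11.7 and 9.13 CPM in 18DS, 7.03, 6.53 and 5.03 CPM in JQ1 and 10.1, 11.5 and 10.4 CPM in BKM120, against 7.49, 7.87 and 7.14 CPM in DMSO. The BKM120 and 18DS libraries lay above and the JQ1 libraries below those of DMSO, and none of the 3 differences passed (0.36, -0.29 and 0.51 with 18DS, JQ1 and BKM120, adjusted p = 0.197, 0.517 and 0.0986). An opposite-strand gene on shared exon positions, *SMARCB1*, held 283% to 594% of the counts of *DERL3*, so reads of the pair cannot be told apart. *EDEM1*, *EDEM2*, *DERL1* and *DERL2* were not called, nor was *SEC24D*, the gene of a coat subunit for export from the ER, which differed by -0.16, -0.03 and 0.10 with 18DS, JQ1 and BKM120.

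Of 105 other genes of ER protein handling 101 were tested. With 18DS 9 of the 101 rose and 8 fell (16.8%, against 21.0% of all tested genes), with JQ1 4 rose and 3 fell (6.93%, against 6.08%), and with BKM120 5 rose and 4 fell (8.91%, against 8.21%). Among 11 genes listed for the PERK and ATF4 branch 5 rose and 1 fell with 18DS (54.5%, against 21.0%). With JQ1 3 rose and 1 fell (36.4%, against 6.08%), and with BKM120 1 rose and 1 fell (18.2%, against 8.21%). The 11 are not all outputs of the branch, since they include *ATF4* itself, which is 1 of the 5 that rose with 18DS, and the phosphatase subunit gene *PPP1R15B*. This list was also drawn up with earlier results of these data known, so its shares are no test of the branch. The counts over the 101 depended on single libraries, with 11 calls for 18DS without 18DS replicate 3, 3 for JQ1 without JQ1 replicate 2, 4 for JQ1 without DMSO replicate 3, and 4, 3 and 5 for BKM120 without BKM120 replicate 1, BKM120 replicate 3 and DMSO replicate 1. In the same order, 15.9%, 3.72%, 3.91%, 4.11%, 3.61% and 3.95% of all tested genes were called, which is also fewer than with all libraries.

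*PPP1R15A*, which encodes GADD34, the phosphatase subunit that reverses the PERK block on translation, rose with all 3 compounds, to 36.3, 29.1 and 39.0 CPM in 18DS, 29.3, 26.5 and 26.5 CPM in JQ1 and 32.6, 23.6 and 28.3 CPM in BKM120, against 13.1, 14.8 and 14.95 CPM in DMSO. The log2 fold changes were 1.29 (SE 0.14, edgeR adjusted p = 8.95e-09), 0.94 (SE 0.14, adjusted p = 1.42e-05) and 0.98 (SE 0.14, adjusted p = 1.32e-05), and the groups did not overlap with DMSO. *SESN2*, which encodes the stress-induced sestrin 2, stood at 50.9, 47.8 and 49.4 CPM in 18DS, 38.6, 34.5 and 40.9 CPM in JQ1 and 15.7, 13.7 and 16.8 CPM in BKM120, against 12.9, 14.8 and 13.3 CPM in DMSO. It rose by 1.85 with 18DS (SE 0.12, adjusted p = 3.48e-14) and by 1.48 with JQ1 (SE 0.12, adjusted p = 5.03e-11).

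*CHAC1*, a glutathione-degrading enzyme gene downstream of ATF4, stood at 10.3, 9.98 and 4.88 CPM in 18DS, 4.97, 7.98 and 4.39 CPM in JQ1 and 2.41, 5.74 and 3.05 CPM in BKM120, against 2.50, 2.25 and 1.66 CPM in DMSO. It rose by 1.95 with 18DS (SE 0.34, edgeR adjusted p = 0.000131) and by 1.39 with JQ1 (SE 0.36, adjusted p = 0.0168). The JQ1 call was lost without JQ1 replicate 2 or DMSO replicate 2 or 3 (adjusted p of 0.0651 to 0.115), and by limma-voom (adjusted p = 0.0593). *TRIB3*, a pseudokinase gene also placed downstream of ATF4 and CHOP, went the other way, with 3.09, 4.38 and 2.52 CPM in 18DS, 3.26, 3.26 and 3.74 CPM in JQ1 and 3.69, 4.86 and 3.05 CPM in BKM120, against 5.58, 8.99 and 8.47 CPM in DMSO. Its log2 fold changes were -1.21 (SE 0.27, adjusted p = 0.00113), -1.15 (SE 0.27, adjusted p = 0.00495) and -0.97 (SE 0.26, adjusted p = 0.0169), in the same order of compounds. The BKM120 call was lost without BKM120 replicate 1 or 3 or DMSO replicate 2 or 3 (adjusted p of 0.0674 to 0.106). *ATF4* itself rose by 0.29 with 18DS (SE 0.07, adjusted p = 0.00468), at 311, 294 and 336 CPM in 18DS against 256, 261 and 255 CPM in DMSO. Without 18DS replicate 2 the log2 fold changes with 18DS were 1.41 for *PPP1R15A*, 1.88 for *SESN2*, 1.83 for *CHAC1*, -1.43 for *TRIB3* and 0.33 for *ATF4*, and these 5 calls held.

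**Figure D4:**
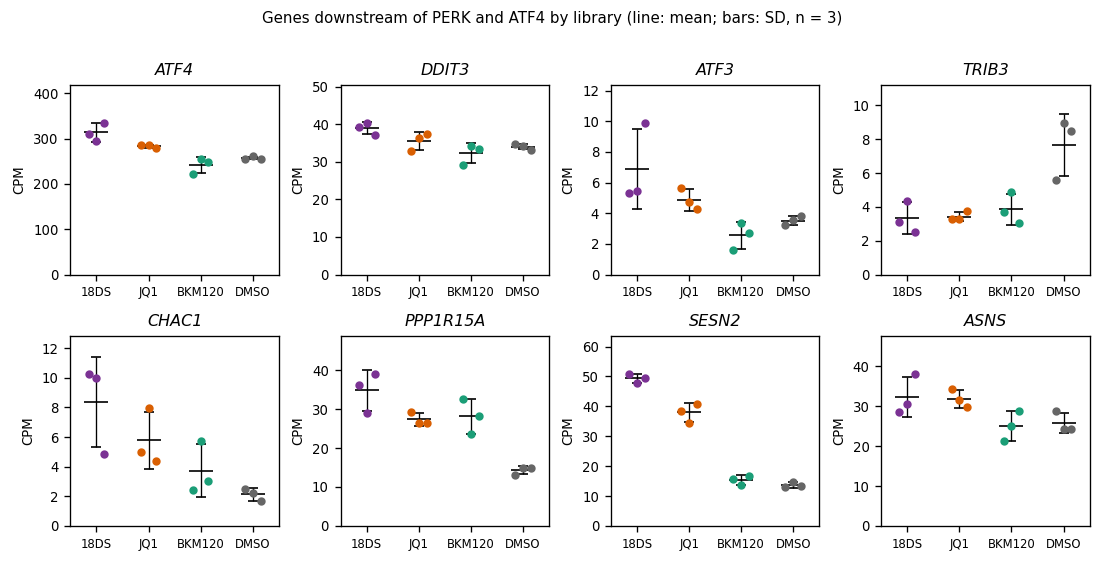
Level in CPM (vertical axis, from 0) of 8 genes listed for the PERK and ATF4 branch, *ATF4* itself among them, in each library of 18DS, JQ1, BKM120 and DMSO (points are replicates 1 to 3 from left to right, lines are means and bars are SD, n = 3). *SESN2* was raised in 18DS and JQ1, *PPP1R15A* in all 3 treated groups, and *TRIB3* was lower in all 3 than in DMSO.

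Outside that branch, *TFG*, a gene for an organiser of ER exit sites, and *TRAM2*, a translocation-associated gene, fell with 18DS. *TFG* stood at 86.8, 60.4 and 71.8 CPM in 18DS against 114, 102 and 103 CPM in DMSO (-0.53, SE 0.11, edgeR adjusted p = 0.000629, and -0.41 without 18DS replicate 2). *TRAM2* stood at 56.5, 44.3 and 58.1 CPM in 18DS against 78.6, 70.0 and 85.4 CPM in DMSO (-0.55, SE 0.11, adjusted p = 0.000264, and -0.44 without 18DS replicate 2). With JQ1 *TRAM2* (-0.40, adjusted p = 0.0178) and *UBE2J1*, a ubiquitin-conjugating enzyme gene of the ER membrane (-0.31, adjusted p = 0.00983), fell. The *TRAM2* call with JQ1 was lost without JQ1 replicate 2 or 3 or DMSO replicate 1 or 3, and that of *UBE2J1* without JQ1 replicate 2 (adjusted p = 0.0852). *UBE2J1* also fell with 18DS (-0.32, adjusted p = 0.00342, and -0.33 without 18DS replicate 2). With BKM120 *HERPUD2* (0.85, SE 0.18, adjusted p = 0.00267) and *TXNDC11* (0.40, SE 0.08, adjusted p = 0.00181) rose, both with an opposite-strand gene on shared exon positions. *UBE2G2*, a ubiquitin-conjugating enzyme gene, fell by 0.36 with BKM120 (SE 0.08, adjusted p = 0.00446), a call lost without BKM120 replicate 3 (adjusted p = 0.0666). The call of *SRPRB*, a gene of the signal recognition particle receptor, with BKM120 (-0.28, adjusted p = 0.0438) was lost in 13 of 22 alternatives. *SRPRB* also fell with 18DS (-0.27, adjusted p = 0.0316), a call lost without 18DS replicate 2 (-0.18, adjusted p = 0.190).

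At the matched dose of 250 nM, 18DS could be set directly against JQ1. The first is described as inhibiting PI3K and BET proteins, and the second acts on BET proteins. An equal dose need not mean equal BET inhibition, which was not measured here. A difference between the compounds in PI3K inhibition and one in BET inhibition cannot be told apart. Of the 44 genes 2 were called, both higher with 18DS, or 4.55% against a background of 4.17% of all tested genes (2.37% higher and 1.79% lower). Libraries did not overlap for 12 of the 44 genes, against 24.0% of all tested genes. *CALR* differed by 0.37 (SE 0.09, edgeR adjusted p = 0.0151), with 596, 755 and 650.1 CPM in 18DS against 520, 503 and 524 CPM in JQ1, and *SSR4* by 0.27 (SE 0.07, adjusted p = 0.0369). Neither call remained without 18DS replicate 2, which left 0 calls by edgeR and 11 genes at an unadjusted p under 0.05. The count was also 0 without JQ1 replicate 2 or JQ1 replicate 3 (12 and 11 genes at an unadjusted p under 0.05), while it was 9 without 18DS replicate 1. It was 6 without BKM120 replicate 2 or DMSO replicate 1, 5 without BKM120 replicate 3, 1 without DMSO replicate 2 and 7 by DESeq2. Where the count was 0, 1.59%, 0.909% and 0.781% of all tested genes were called, in the same order. The shares were 13.6% against 4.99% without BKM120 replicate 2 and 13.6% against 5.60% without DMSO replicate 1. They were 11.4% against 4.61% without BKM120 replicate 3 and 2.27% against 3.13% without DMSO replicate 2. No share of all genes is given here for the unadjusted p. The share called was 20.5% of the 44 against 7.64% of all tested genes without 18DS replicate 1. By DESeq2 it was 17.9% of the 39 with an adjusted p against 7.48% of 7076 genes. With no expression filter it was 18.2% against 2.57% of 30582 genes. That background includes the low-count genes that the main filter left out, whereas all 44 passed it, so these 2 shares are not of like genes. With a minimum count of 50 the shares were 16.7% of 42 and 6.45% of 8941 genes.

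For *HSPA5* the difference of 18DS from JQ1 was 0.01 on the log2 scale with a 95% confidence interval of -0.12 to 0.15, and for *HERPUD1* it was 0.04 (-0.13 to 0.21). *XBP1* differed by -0.25 (-0.41 to -0.08, edgeR adjusted p = 0.0670), with 1 of the 3 18DS libraries inside the JQ1 range. It was lower at an adjusted p of 0.00231 without 18DS replicate 1 and of 0.0296 with library totals. *SDF2L1* (0.29, 0.11 to 0.47, adjusted p = 0.0530) and *DERL3* (0.65, 0.24 to 1.07, adjusted p = 0.0571) were higher in every 18DS library than in every JQ1 library without passing. *EIF2AK3* differed by 0.11 (-0.11 to 0.33). Of the 101 other ER genes 2 were higher and 4 lower with 18DS than with JQ1, or 5.94% against 4.17% of all tested genes. Among them was *KDELR1*, a gene of a receptor that returns chaperones to the ER, at 0.39 (SE 0.09, adjusted p = 0.00932), a call lost without JQ1 replicate 2 or 3 (adjusted p = 0.0571 and 0.0540). Against DMSO *KDELR1* rose with 18DS (0.27, adjusted p = 0.0236, but 0.21 and adjusted p = 0.103 without 18DS replicate 2) and with BKM120 (0.31, adjusted p = 0.0190). *TMX2* (-0.33), *TFG* (-0.40) and *SEC63* (-0.28) were lower and *SESN2* (0.37) was higher, and these 4 calls were lost without several single libraries (adjusted p up to 0.111, 0.163, 0.226 and 0.192). *SRPRB* was also lower, at the threshold (-0.30, adjusted p = 0.04997).

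**Figure D5:**
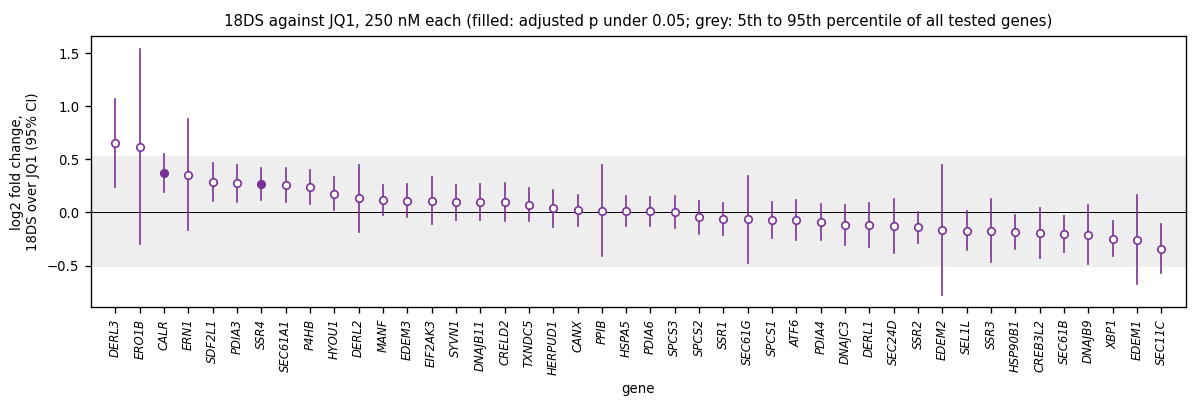
Log2 fold change of 18DS over JQ1, both at 250 nM (vertical axis), for the 44 genes ordered by it (horizontal axis), with 95% confidence intervals from the edgeR fit. The 2 filled points, *CALR* and *SSR4*, passed an adjusted p under 0.05, and the grey band runs from the 5th to the 95th percentile of all tested genes.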

How the data were processed

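The raw counts per Ensembl gene, whole numbers in 1 column per library and not normalized, are as the authors deposited them. Per the labels, QuantSeq 3′ libraries were sequenced with single-end reads of 75 bases. The submitters' processing notes name HISAT2 2.1.0, featureCounts from Subread, SAMtools 1.9, cutadapt 1.7, FastQC 0.11.5, bcl2fastq 2.17.1.14 and limma, and hg19 as build. Which annotation release was used, whether strand was counted and how shared reads were assigned is not given in these sources. Symbols were matched through a list of gene names (51662 of 63152 identifiers), and overlapping genes were found in GENCODE 29.

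The analysis used edgeR 4.0.16 in R 4.3.3. Genes were kept by filterByExpr (minimum count 10, minimum total 15), libraries were scaled by TMM, and 1 robust quasi-likelihood fit over the 12 libraries gave log2 fold changes, SE, 95% confidence intervals and p-values, adjusted by Benjamini-Hochberg over the 13180 tested genes of each of 4 comparisons. The median SE was 0.086 for the 44 genes with 18DS and 0.17 over all genes. CPM values are per TMM-scaled library size, and marker sums per total counts. The p-values measure the spread between libraries described as biological triplicates, and no label says that they came from separate cultures. Genes are described by library if they are a sensor, *HSPA5* or *HSP90B1*, or if they were called, and from the other ER genes the 3 with the smallest p in each direction are named. *ATF4*, *TXNDC5*, *SSR3*, *SEC61G*, *SDF2L1* and *DERL3* were added after their values were seen, as were *ATF3*, *DDIT3*, *ASNS*, *PPP1R15B*, *DDIT4* and *CEBPB*. The 44 genes and all lists were chosen with earlier results of these data known. Alternatives used limma 3.58.1 (limma-voom), DESeq2 1.42.0, other scalings and filters, the replicate number as a block and leaving out each of the 12 libraries, and the same alternatives were applied to the other ER genes after the data were seen.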

Additional observations from a re-analysis of the deposited data

How the results depend on the processing

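Over the other settings the count of the 44 genes called moved by over 1.5 times with JQ1 for the 2 groups fitted alone (5 against 3), with BKM120 under the replicate block (3 against 5), and with 18DS against JQ1 (2) for upper-quartile factors (5), DESeq2 size factors (4), no expression filter (8), a minimum count of 50 (7), no robust option (1), the 2 groups alone (4) and DESeq2's Wald test (7). Beside these counts the share called was 11.6% against 8.83% of all tested genes with JQ1, and 6.82% against 7.91% with BKM120. With 18DS against JQ1 it was 11.4% against 4.39% for upper-quartile factors and 9.09% against 4.29% for DESeq2 size factors. It was 2.27% against 3.61% without the robust option and 9.09% against 4.61% for the 2 groups alone. Leaving out 1 library gave 8 to 12 calls for 18DS, 1 to 5 for JQ1, 1 to 7 for BKM120 and 0 to 9 for 18DS against JQ1. With 1 library left out, 14.2% to 22.5%, 3.72% to 7.56%, 3.61% to 11.6% and 0.781% to 7.64% of all tested genes were called, in the same order. The median log2 fold change moved by more than its spread between replicates with library totals for 18DS (-0.073) and with upper-quartile factors for BKM120 (0.041). Library totals moved the median of all genes by -0.072 for 18DS and upper-quartile factors by 0.049, both under 0.1. The cause was not tested in any of these.

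The replicate numbers are shared across groups, but same-numbered libraries did not deviate together (correlations of -0.0537 to 0.0919 over 12 pairs, and 2, 1, 1 and 1 of 3 libraries correlated best with their own number in the 4 comparisons). Under the replicate block the counts were 10 for 18DS, 3 for JQ1 and 3 for 18DS against JQ1, and *CREB3L2* with 18DS and *SEC11C* and *DNAJC3* with BKM120 lost their calls. The shares for those 3 counts were 22.7%, 6.82% and 6.82%, against 20.2%, 5.64% and 3.96% of all tested genes.

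Of 1379 values of named genes under these settings 1224 kept their direction and their side of the threshold, 132 lost the call, 6 gained it and 17 turned sign. Those 17 were all of genes that were not called: *ATF6* with 18DS (0.044 with upper-quartile factors, 0.012 with a minimum count of 50, and -0.069 to 0.047 with 1 library left out), *HSP90B1* with JQ1 (-0.023 with library totals, -0.011 without a filter, -0.032 to 0.039 with 1 library left out), *ERN1* with JQ1 (-0.31 to 0.056 with 1 library left out), *HSPA5* with BKM120 (0.0032 with upper-quartile factors), *HSPA5* in 18DS against JQ1 (-0.030 with library totals, and -0.024 to 0.072 with 1 library left out) and *EIF2AK3* in 18DS against JQ1 (-0.016 to 0.21 with 1 library left out). Genes with few counts had a large SE, and whether depth or the spread between libraries sets it was not tested: with 18DS it was 0.468 for *ERO1B*, 0.298 for *EDEM2*, 0.251 for *ERN1*, 0.211 for *EDEM1* and 0.197 for *DERL3*, against a median of 0.086 over the 44.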

Other observations

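Several genes that were not called also share exon positions with another gene in GENCODE 29. An overlapping gene held 87.5% to 92.1% of the counts of *PDIA6* (*ATP6V1C2*), 103% to 106% of those of *TXNDC5* (the read-through *BLOC1S5-TXNDC5*), 91.6% to 102% of those of *PPIB* (*SNX22*) and 69.5% to 95.6% of those of *SEC61A1* (*RUVBL1*) over the 12 libraries. In all, 14 of the 44 genes overlap a gene that holds more than 5% of their own counts. How many reads each pair shares was not tested.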
